A study of Mus musculus with 8 samples.

Results

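The BCL2 family decides whether mitochondria release the factors that start apoptosis. The results below follow 9 of its genes through nuclei of mouse bone marrow progenitors. The genes were taken by name, as 9 of the 32285 rows of the deposited RNA table. The 4 survival genes were Bcl2, Mcl1, Bcl2l1 (BCL-XL) and Bcl2a1b (a BFL1/A1 copy). The 5 death genes were the BH3-only genes Bcl2l11 (BIM), Bmf and Bid, and the pore-forming effectors Bax and Bak1. Classes of nuclei were gated on lists of lineage marker genes that hold none of the 9, and the ratio of survival to death gene counts was taken in each class.

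The study sorted lineage-negative, ckit+, Sca1+ (LSK) marrow cells, a fraction that contains hematopoietic stem cells (HSCs) and early progenitors, from T58A mice and from WT littermates. T58A mice carry a point mutation of MYC. Threonine 58, the residue that the mutation replaces, is part of the signal that sends MYC to the proteasome. The 8 samples came from the 10x multiome assay, which reads RNA and open chromatin in the same nuclei, with 2 RNA (GEX) and 2 ATAC samples for each genotype, each from LSK cells of 2 mice. The sources used here do not give age, sex or zygosity, and the ATAC samples were not analysed here.

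Survival proteins of the family hold the effectors BAX and BAK in check on the outer mitochondrial membrane, and BH3-only proteins relieve that hold when a cell is deprived of growth factors or damaged. Mouse stem and progenitor cells are known to need Mcl1, lymphocytes to need Bcl2 and to be removed through Bcl2l11, and maturing red cells and platelets to need Bcl2l1. MYC is known to sensitise cells to apoptosis, partly through these genes, and loss of Bcl2l11 or gain of Bcl2 speeds MYC-driven lymphoma in mice.

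The table held 45723860 UMIs (unique molecular identifiers, each counting 1 captured RNA molecule) from 8708 nuclei, with a median of 4147.5 per nucleus. The barcodes fell into 4 sets of 721 to 2999 nuclei, and 36 barcodes occurred in more than 1 set. No source used here tied a set to a genotype or a replicate, and the table's name mentions T58A alone, so T58A and WT were not compared and the table was treated as 1 sample without replicates. Sets 1 and 3 stood apart from sets 2 and 4, with 24.6% and 24.2% of UMIs from mitochondrially encoded genes against 9.98% and 9.22%, and with lower median depths (3035 and 3638.5 against 6764 and 5930.5 UMIs). Values in the 4 sets are given beside the value over all nuclei, and intervals are at 95% and cover counting error only.

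The gates took 865 lymphoid, 667 granulocyte, 390 monocyte, 373 megakaryocyte and 528 erythroid progenitor-like nuclei and 831 HSC-like nuclei. Another 8 gates, of other or later cell types, took 14 to 257 nuclei each, and 4107 nuclei (47.2%) passed no gate. Between 3 and 8 markers of its own list stood among the top 10 genes of each class, and no marker of another list did. The gates used these same markers, so this follows largely from the gating and is no separate check of class identity. By markers detected per nucleus some gates were less distinct. Monocyte nuclei had a median of 4 own and 3 granulocyte markers, and megakaryocyte nuclei 4 own and 3 HSC-like markers. Late erythroid-like nuclei had 7 own and 5 erythroid progenitor markers, and early B-like nuclei 5 own and 3 lymphoid markers. In lymphoid, granulocyte, erythroid progenitor-like and HSC-like nuclei the highest other list had a median of 1. HSC-like nuclei were led by Fgd5, Il1rapl2 and Procr, lymphoid by Arpp21, Cmah and Dntt, granulocyte by Elane, Ms4a3 and Ctsg, monocyte by F13a1, megakaryocyte by Rab27b and Vwf, and erythroid by Slc25a21 and Car1. Of the sort's own markers, Kit was at 198 to 631 CPM (counts per 1000000 UMIs) in every gated class, whereas Ly6a, which encodes Sca1, was at 66.8 CPM in plasma cell-like nuclei and at 0 to 15.7 CPM in all other gated classes, among them HSC-like nuclei at 15.5 CPM. Erythroid progenitor-like nuclei came mostly from sets 1 and 3, with 13 nuclei in set 2, and late erythroid-like nuclei were seen only in sets 1 and 3.

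Over all 8708 nuclei, Bcl2 gave 19192 UMIs, or 420 CPM (95% Poisson interval 414 to 426), and Mcl1 gave 5448 (119 CPM). Bcl2l11 was at 49.95 CPM, Bid at 28.2, Bcl2l1 at 18.0, Bak1 at 10.3 and Bax at 7.96. Bmf (51 UMIs, 1.12 CPM) and Bcl2a1b (5 UMIs, 0.11 CPM) were near the bottom of what the table can measure. These counts come from nuclear RNA, in which unspliced transcripts of long genes weigh more. Bcl2 spans 176 kb of chromosome 1 and Mcl1 6.24 kb of chromosome 3, and per kb of gene the order turned round, with Mcl1 at 19.1 and Bcl2 at 2.38 CPM per kb. Bcl2l11 was at 1.37, Bax at 1.53, Bid at 1.18 and Bak1 at 1.16 CPM per kb, so these 4 death genes lay within 1.16 to 1.53 CPM per kb. Bcl2a1b has near-identical copies between which the counting could split reads, and Bak1 and Bcl2l11 overlap Ggnbp1 (234 UMIs) and Acoxl (104 UMIs), so these rows are uncertain to that extent.

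The members sit at scattered loci, and 3 of their promoters show how differently the genes begin. The windows are from RefSeq (GRCm38.p6), 5′ to 3′ on the gene's strand, and run from 250 bases before the annotated start to 50 bases after it. All 9 members matched, with 14 windows because some genes have several starts. Capitals mark matches to CACGTG, the E-box that MYC and MAX bind, or to GTAAACA, the FOXO site, both searched on both strands. The Bcl2 window (chr1:106714241-106714540, minus strand, 76.0% G and C), the Bcl2l11 window (chr2:128125788-128126087, plus strand, 71.0%) and the Bax window (chr7:45466849-45467148, minus strand, 57.3%) read as follows.
Bcl2: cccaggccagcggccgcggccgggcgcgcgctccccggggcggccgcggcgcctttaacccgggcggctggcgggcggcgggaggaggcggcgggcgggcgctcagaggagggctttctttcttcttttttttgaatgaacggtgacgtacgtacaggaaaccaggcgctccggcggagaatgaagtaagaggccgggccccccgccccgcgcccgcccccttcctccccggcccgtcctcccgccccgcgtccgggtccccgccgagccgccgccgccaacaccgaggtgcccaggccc
Bcl2l11: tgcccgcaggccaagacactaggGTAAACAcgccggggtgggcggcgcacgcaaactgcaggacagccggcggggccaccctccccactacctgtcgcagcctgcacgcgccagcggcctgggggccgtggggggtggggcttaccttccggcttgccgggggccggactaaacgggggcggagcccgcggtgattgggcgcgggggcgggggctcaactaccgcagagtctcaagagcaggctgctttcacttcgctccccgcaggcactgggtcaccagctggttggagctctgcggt
Bax: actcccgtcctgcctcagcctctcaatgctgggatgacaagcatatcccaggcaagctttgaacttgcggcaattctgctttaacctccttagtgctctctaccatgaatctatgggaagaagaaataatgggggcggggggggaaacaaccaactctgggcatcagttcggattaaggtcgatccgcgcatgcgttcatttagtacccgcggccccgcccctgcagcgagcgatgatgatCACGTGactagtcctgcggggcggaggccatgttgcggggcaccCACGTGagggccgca
Among the 14 windows CACGTG occurred in the Bax window alone, at positions -9 and 36. There is no position 0 in this numbering, and the annotated start is the first positive position. GTAAACA occurred only in the Bcl2l11 window shown, at position -227. TTCNNNGAA, the STAT site, occurred in none of them. Of all 32851 promoter windows in the RefSeq table, 7.15% held CACGTG, 0.594% held it 2 or more times, 3.65% held GTAAACA and 8.30% held TTCNNNGAA. A match is a stretch of letters and says nothing of binding, and no match says only that the letters are not in that window.

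The ratio of survival to death gene UMIs was lowest in erythroid progenitor-like nuclei, at 1.37 (95% interval 1.21 to 1.55), against 6.55 (5.84 to 7.36) in HSC-like nuclei. It was highest among the 5 progenitor classes in megakaryocyte progenitor-like nuclei, at 11.98 (9.98 to 14.5), and in monocyte progenitor-like nuclei, at 9.65 (8.61 to 10.9). Lymphoid progenitor-like nuclei were at 4.45 (4.13 to 4.80) and granulocyte progenitor-like nuclei at 5.93 (5.34 to 6.60). The log2 ratio to HSC-like nuclei was -2.26 (-2.50 to -2.01) for erythroid, -0.56 (-0.75 to -0.36) for lymphoid, 0.56 (0.33 to 0.79) for monocyte and 0.87 (0.56 to 1.18) for megakaryocyte nuclei. For granulocyte nuclei it was -0.14, with an interval from -0.37 to 0.08 that includes no difference.

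In barcode sets 1 to 4 the ratio was 1.18, 0.76, 1.31 and 1.93 in erythroid nuclei, against 9.18, 7.15, 6.28 and 6.02 in HSC-like nuclei. All 4 erythroid values lay below all 4 HSC-like values. In megakaryocyte nuclei it was 14.5, 15.2, 9.25 and 12.4, all above the HSC-like values. In monocyte nuclei it was 8.23, 14.8, 6.60 and 10.6, which overlapped the HSC-like range through sets 1 and 3. In lymphoid nuclei it was 5.72, 5.61, 2.71 and 4.40, and in granulocyte nuclei 7.33, 5.69, 4.85 and 6.18. Each lymphoid value lay below the HSC-like value of the same set, and the set that gave the lowest lymphoid, granulocyte, monocyte and megakaryocyte ratio was set 3.

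**Figure D1:**
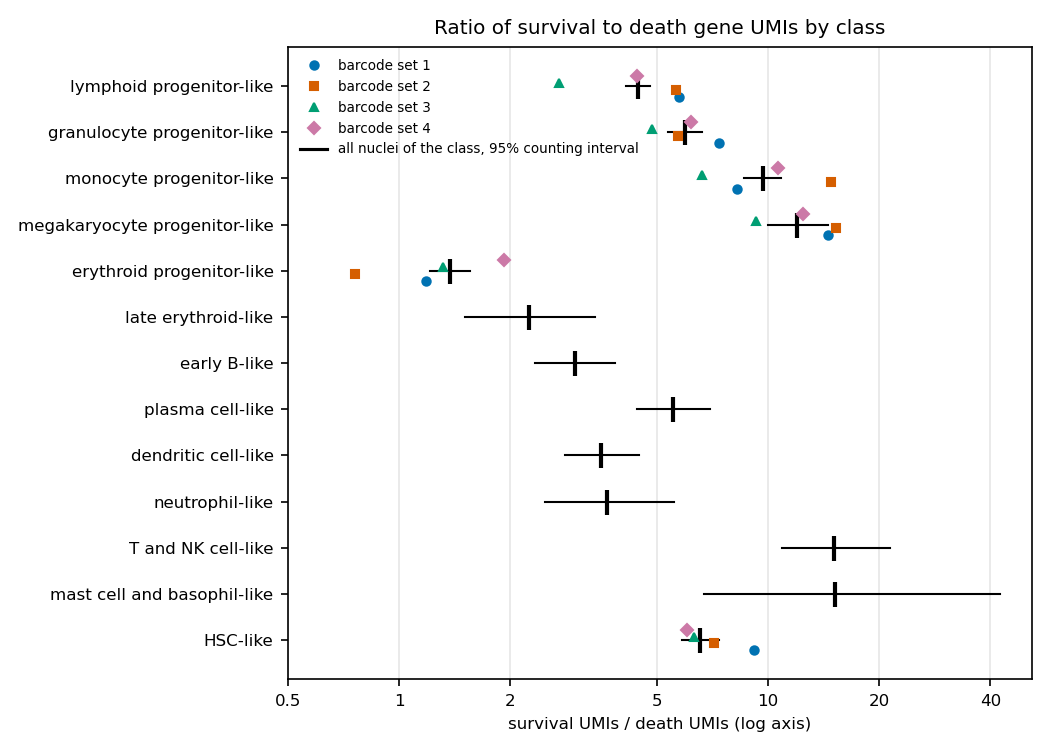
Survival gene UMIs over death gene UMIs (log axis) in 12 gated classes and in HSC-like nuclei at the bottom. Black ticks and lines are all nuclei of a class with the 95% counting interval, and symbols are the 4 barcode sets in the 5 progenitor classes and HSC-like nuclei. Erythroid progenitor-like nuclei sit at 1.37 and megakaryocyte progenitor-like nuclei at 11.98, on either side of HSC-like nuclei at 6.55.

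A long gene and a short gene weigh very unequally in this ratio. Bcl2 gave 78.3 to 88.7% of survival UMIs in lymphoid, granulocyte, monocyte and megakaryocyte nuclei and 51.1% in erythroid nuclei, against 61.9% in HSC-like nuclei. Without Bcl2 the ratio was 2.60 in megakaryocyte, 1.11 in granulocyte, 1.09 in monocyte, 0.74 in lymphoid and 0.67 in erythroid nuclei, against 2.50 in HSC-like nuclei. The monocyte class then lay below HSC-like nuclei and the megakaryocyte class close to them. Bcl2l11 gave 70.4% of death UMIs in lymphoid nuclei, against 48.4% in HSC-like nuclei. Without Bcl2l11 the log2 ratio of the lymphoid class to HSC-like nuclei turned to 0.24.

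Each progenitor class was then set against HSC-like nuclei gene by gene. Here "higher" and "lower" calls mean that summed CPM plus 10 differed at least 1.5-fold and that each of the 4 barcode sets differed in that direction, a descriptive rule without a test behind it. Genes with at least 50 UMIs over both classes were measured, which held for 7 members (6 in the megakaryocyte comparison, where Bax had too few), and never for Bmf or Bcl2a1b. Folds are ratios of CPM, and log2 values are on the CPM plus 10 scale. In lymphoid nuclei 2 of 7 members were higher and 1 lower, where 4.35% of all measured genes were higher and 6.97% lower. In granulocyte nuclei 0 were higher and 1 lower (5.48% and 15.3% of all measured genes). In monocyte nuclei 2 were higher and 0 lower (5.94% and 13.6%). In megakaryocyte nuclei 2 of 6 were higher and 1 lower (3.23% and 8.95%). In erythroid nuclei 0 of 7 were higher and 3 lower (8.47% and 25.6%), and the 3 were the survival genes Bcl2, Mcl1 and Bcl2l1.

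**Figure D2:**
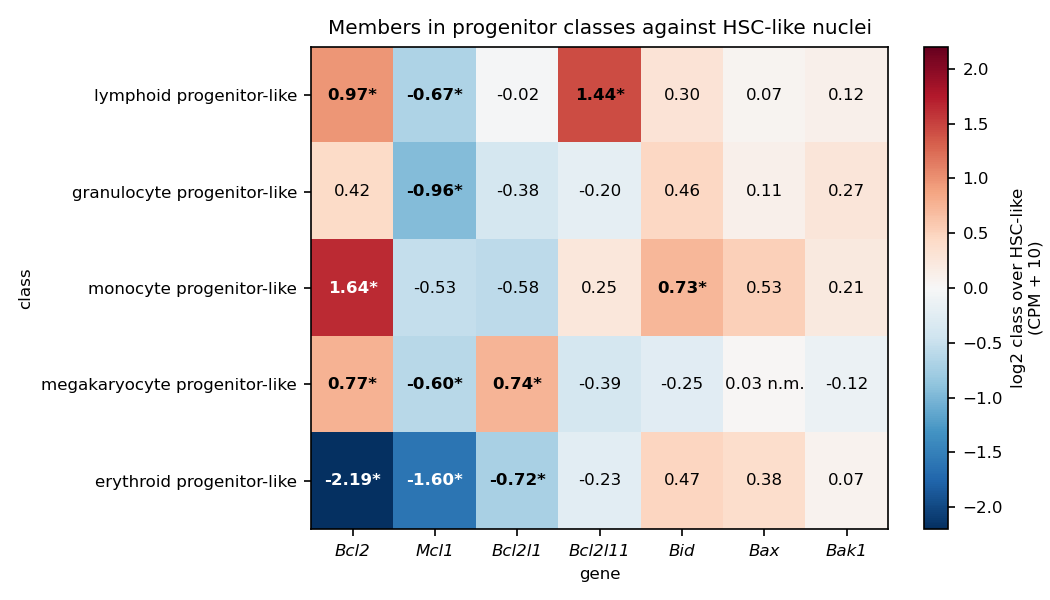
Log2 ratio of CPM plus 10 in each progenitor class over HSC-like nuclei for the 7 members with enough UMIs. An asterisk marks a gene called at 1.5-fold with each of the 4 barcode sets in that direction, and n.m. a gene with under 50 UMIs over both classes. The 3 survival genes are all below 0 in erythroid nuclei, while Bcl2 is above 0 in the other 4 classes.

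The median log2 ratio of the 3 survival members measured was -1.60 in erythroid nuclei and that of the 4 death members 0.23, beside -0.17 for all genes. In megakaryocyte nuclei the survival median was 0.74 and the median of 3 death members -0.25, beside -0.07 for all genes. The other classes had survival medians of -0.02 (lymphoid), -0.38 (granulocyte) and -0.53 (monocyte) and death medians of 0.21, 0.19 and 0.39 in the same order, beside -0.01, -0.11 and -0.07 for all genes.

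Bcl2, the founding survival gene of the family, had the widest range of the members over the progenitor and HSC-like classes. In barcode sets 1 to 4 it was at 767, 1150.5, 835 and 1197 CPM in monocyte nuclei and at 602, 693, 536 and 641 CPM in lymphoid nuclei, against 287, 382, 325 and 301 CPM in HSC-like nuclei. Both classes lay above HSC-like nuclei without overlap. Over all nuclei the monocyte level was 1007 CPM, 3.19-fold that in HSC-like nuclei (interval 2.99 to 3.40), and the lymphoid level 627 CPM, 1.99-fold (1.87 to 2.12), against 316 CPM in HSC-like nuclei. Megakaryocyte nuclei had 512, 714, 424 and 637 CPM in the 4 sets and 546 CPM in all, 1.73-fold the HSC-like level and higher in each set. Granulocyte nuclei had 425 CPM, 1.35-fold the HSC-like level, which was not called.

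Erythroid progenitor-like nuclei stood at the other end of the Bcl2 scale. They had 58.2, 53.7, 49.6 and 93.2 CPM in the 4 sets, all below every HSC-like value. The level over all nuclei was 61.5 CPM (54.8 to 68.8), or 0.19-fold that in HSC-like nuclei (0.17 to 0.22). After each nucleus was thinned to 2000 UMIs, 9.28% of erythroid nuclei held a Bcl2 UMI (27.1% unthinned, at a median of 8624.5 UMIs), against 38.2% of HSC-like nuclei (57.8%, at 4058 UMIs). No class here is known to lack Bcl2, so the erythroid share is also the lowest at hand for reading the 59.6% of lymphoid nuclei (76.8% unthinned, at 4945 UMIs) and the 73.0% of monocyte nuclei (87.2%, at 6397 UMIs). Thinning left out 11 erythroid, 57 HSC-like, 49 lymphoid and 20 monocyte nuclei under 2000 UMIs.

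Mcl1 encodes a short-lived survival protein that stem cells depend on, and its level was below that of HSC-like nuclei also in classes where Bcl2 was higher. In the 4 sets lymphoid nuclei had 95.9, 108, 108 and 109 CPM and granulocyte nuclei 85.5, 85.7, 70.2 and 91.9 CPM, against 174, 135, 189.7 and 180.2 CPM in HSC-like nuclei. Neither class overlapped HSC-like nuclei, and each of the 5 progenitor classes lay below them in every set. Over all nuclei Mcl1 was at 106 CPM in lymphoid, 85.1 in granulocyte, 112 in megakaryocyte and 51.0 in erythroid nuclei, against 175 CPM in HSC-like nuclei, and was called lower in these 4 classes. The ratios were 0.61 (0.54 to 0.68), 0.49 (0.43 to 0.55), 0.64 (0.55 to 0.74) and 0.29 (0.25 to 0.34). Monocyte nuclei had 118 CPM, 0.68-fold the HSC-like level, which on the CPM plus 10 scale (-0.53) was short of the 1.5-fold limit. The megakaryocyte call (log2 ratio -0.60, close to the 1.5-fold limit) was lost without barcode set 1.

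The pairing of the main survival genes therefore differed by class. Bcl2 UMIs exceeded Mcl1 UMIs 8.51-fold in monocyte, 5.92-fold in lymphoid, 4.99-fold in granulocyte, 4.88-fold in megakaryocyte and 1.20-fold in erythroid nuclei, against 1.80-fold in HSC-like nuclei.

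**Figure D3:**
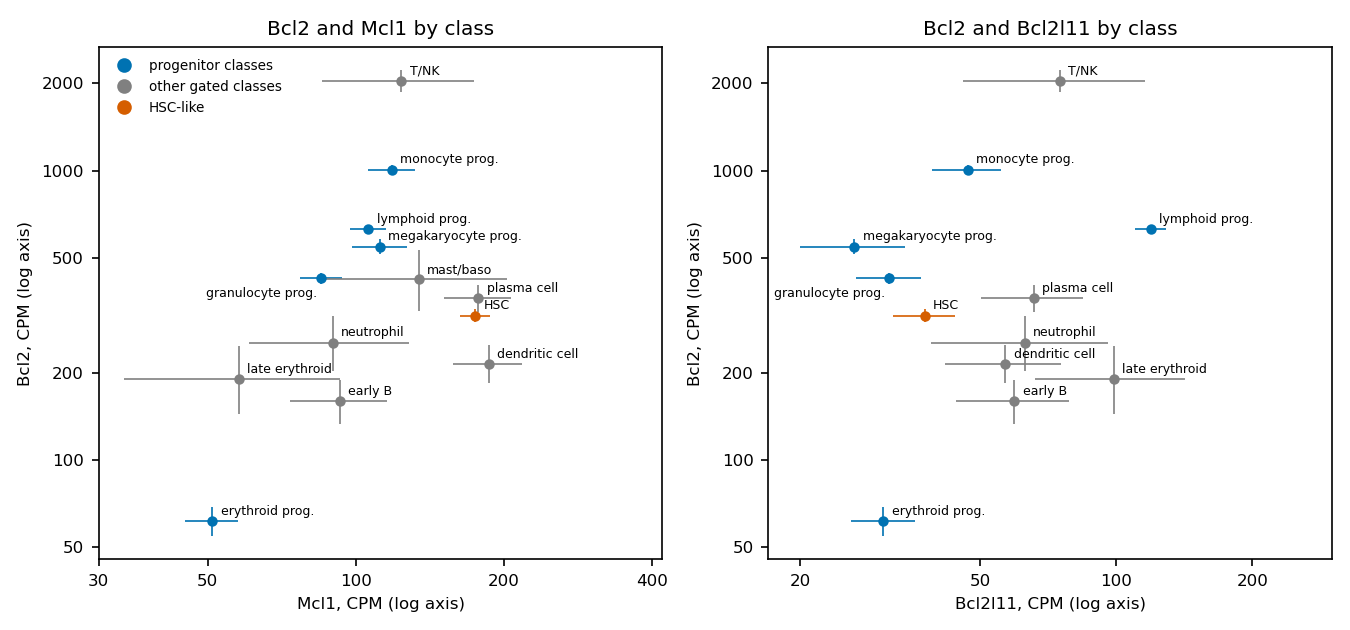
Bcl2 CPM against Mcl1 CPM (left) and against Bcl2l11 CPM (right), log axes, with 95% counting intervals. Blue marks the progenitor classes, grey other gated classes with at least 3 UMIs of each gene (endothelial and stromal-like nuclei are not drawn), and orange HSC-like nuclei. Lymphoid progenitor-like nuclei are far right in the right panel at 119 CPM of Bcl2l11, and erythroid progenitor-like nuclei are at the bottom of both.

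Bcl2l1, whose product keeps platelets and late red cell precursors alive, was highest among the 5 progenitor classes in megakaryocyte nuclei. It had 23.1, 69.2, 32.7 and 47.8 CPM there in the 4 sets, against 12.1, 17.5, 16.5 and 23.6 CPM in HSC-like nuclei, so that only set 1 overlapped. The level was 39.3 CPM against 19.4 CPM in HSC-like nuclei, or 2.02-fold (1.48 to 2.76), from 85 UMIs in each class. This megakaryocyte call held in 13 of 16 alternatives, with log2 values from 0.47 to 1.32. It was lost with Leiden clusters in place of gates, among nuclei without G2/M genes and with a 2-fold limit. Erythroid progenitor-like nuclei had 7.84 CPM, 0.40-fold the HSC-like level (0.27 to 0.60) from 39 UMIs, and that call held in 10 of 16 alternatives. It was lost without barcode set 4, with the stricter gate, among nuclei without G2/M genes, as a mean of barcode sets, at 2000 UMIs and with a 2-fold limit, so the erythroid calls that held in 16 of 16 were those of Bcl2 and Mcl1. Bcl2l1 was at 34.1 CPM (16.3 to 62.6) from 10 UMIs in late erythroid-like nuclei and at 57.2 CPM (42.1 to 75.8) from 48 UMIs in early B-like nuclei, the highest value of any class. Bcl2a1b had 0 UMIs in all 5 progenitor classes and 1 in HSC-like nuclei, and 4 of its 5 UMIs lay in dendritic cell-like nuclei of set 4. A count of 0 allows up to 3 UMIs, which is 3.57 CPM in early B-like and 3.29 CPM in plasma cell-like nuclei.

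Among the death genes, Bcl2l11, which encodes the BH3-only protein BIM, was highest in lymphoid progenitor-like nuclei. In sets 1 to 4 it was at 72.6, 96.3, 179 and 130.4 CPM there, against 16.7, 28.6, 47.4 and 42.5 CPM in HSC-like nuclei. The groups did not overlap, and sets 3 and 4 were the higher ones in both. Over all nuclei it was at 119 CPM (109.8 to 129) in lymphoid nuclei against 37.7 CPM in HSC-like nuclei, 3.16-fold (2.66 to 3.78). The call held in 16 of 16 alternatives, with log2 values from 1.33 to 1.93. At 2000 UMIs, 18.9% of lymphoid nuclei held a Bcl2l11 UMI (37.2% unthinned), against 5.30% of HSC-like nuclei (13%). Bcl2l11 was not called in any other class, with 26.3 to 46.9 CPM in the other 4, although in monocyte nuclei it was called higher with the stricter gate and at 2000 UMIs.

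Bcl2 and Bcl2l11 were thus both higher in lymphoid nuclei, while Mcl1 was lower. Mcl1 UMIs over Bcl2l11 UMIs came to 0.89 in lymphoid nuclei, 1.67 in erythroid, 2.52 in monocyte, 2.71 in granulocyte and 4.25 in megakaryocyte nuclei, against 4.64 in HSC-like nuclei. Within the lymphoid gate, 202 nuclei with an Il7r UMI (the interleukin-7 receptor chain, which marks common lymphoid progenitors) were set beside 614 without, each thinned to 2000 UMIs for this split. In sets 1 to 4 Bcl2l11 was at 105, 118, 216 and 164 CPM with Il7r and at 62.1, 88.0, 169.6 and 121.5 CPM without, higher with Il7r in each set. Over all of them it was 147 CPM with Il7r and 111 CPM without, a ratio of 1.33 (1.11 to 1.58). Bcl2 (567 against 654 CPM) and Mcl1 (86.9 against 112 CPM) were lower with Il7r, and the survival to death ratio was 3.46 with Il7r and 4.85 without. Il7r is a marker of the gate itself, and a nucleus without an Il7r UMI may still express it.

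Bid, a BH3-only gene whose product caspase-8 cleaves, was called higher in monocyte nuclei alone. It had 52.0, 34.3, 45.8 and 45.2 CPM there in the 4 sets, against 22.8, 25.4, 19.6 and 24.5 CPM in HSC-like nuclei, with no overlap. The level was 45.1 against 23.3 CPM in HSC-like nuclei, or 1.94-fold (1.48 to 2.54). Granulocyte nuclei (35.7 CPM, 1.53-fold) and erythroid nuclei (36.2 CPM, 1.55-fold) exceeded HSC-like nuclei in each set but were under the 1.5-fold limit on the CPM plus 10 scale. With an added CPM of 1 in place of 10, Bid was called higher in both. Lymphoid nuclei had 30.9 CPM and megakaryocyte nuclei 18.0 CPM, neither called, and the stricter gate made Bid a higher call in lymphoid nuclei. Bmf, the third BH3-only gene, gave 9 UMIs in lymphoid, 3 in granulocyte, 1 in monocyte, 0 in megakaryocyte and 1 in erythroid nuclei, against 8 in HSC-like nuclei. Early B-like nuclei gave 8 Bmf UMIs from far fewer nuclei, 9.53 against 1.83 CPM in HSC-like nuclei, a ratio of 5.21 with a wide interval (1.71 to 15.9).

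The effectors Bax and Bak1, which form the pore, had the flattest profiles. Bax ranged from 6.47 CPM in megakaryocyte to 13.3 CPM in monocyte nuclei over the 5 classes, against 6.17 CPM in HSC-like nuclei, on 14 to 55 UMIs a class. Bak1 ranged from 7.39 CPM in megakaryocyte to 12.8 CPM in granulocyte nuclei, against 8.91 CPM in HSC-like nuclei. Neither was called in any class, but Bax was called higher in monocyte nuclei without barcode set 1, over non-mitochondrial UMIs and with an added CPM of 1, which also gave that call in erythroid nuclei. In barcode sets 1 to 4 Bax was at 11.2, 10.1, 16.5 and 14.7 CPM in monocyte nuclei and at 13.1, 10.7, 10.4 and 9.61 CPM in erythroid nuclei, against 7.59, 4.77, 9.28 and 4.72 CPM in HSC-like nuclei. All values of both classes lay above all HSC-like values, but on 37, 55 and 27 UMIs, and the log2 ratios (0.53 and 0.38) were under the limit. Bak1 overlapped between sets in each of the 5 comparisons. BH3-only UMIs exceeded effector UMIs 8.72-fold in lymphoid nuclei, against 4.17-fold in HSC-like nuclei, and 3.20- to 3.66-fold in the other 4 classes.

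**Figure D4:**
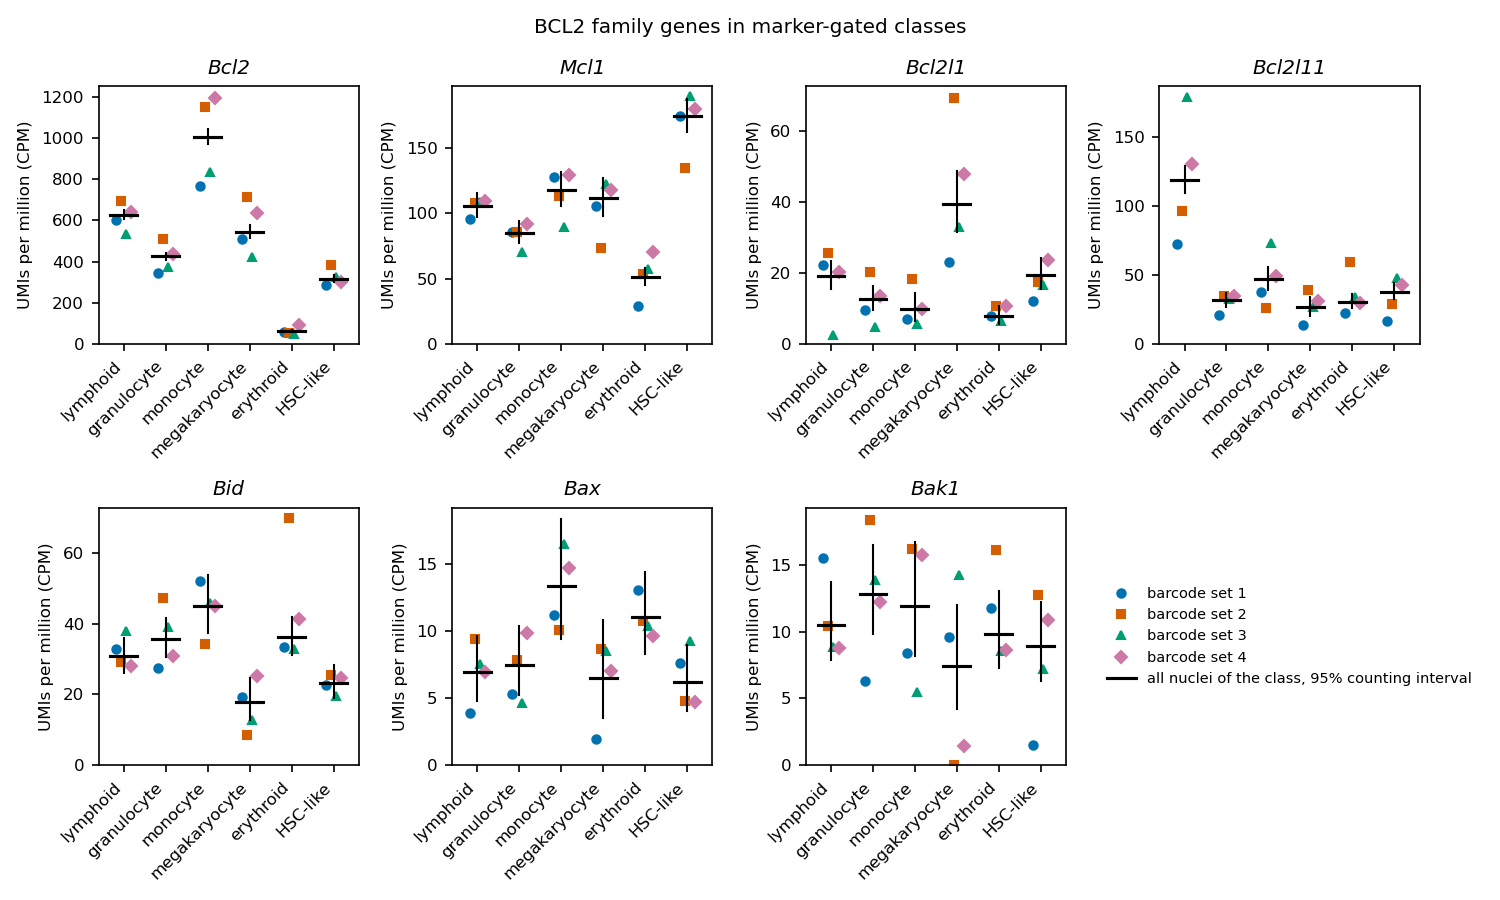
CPM of 7 members in 5 progenitor classes and HSC-like nuclei (right of each panel). Symbols are barcode sets, the horizontal line is all nuclei of the class and the vertical line its 95% counting interval. Bcl2 peaks in monocyte nuclei at 1007 CPM, Mcl1 in HSC-like nuclei at 175, Bcl2l1 in megakaryocyte nuclei at 39.3 and Bcl2l11 in lymphoid nuclei at 119 CPM.

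The smaller gates extended the range of these levels. T and NK cell-like nuclei (39 nuclei) had the highest Bcl2 level of all, 2040 CPM (1872 to 2218), 6.46-fold that in HSC-like nuclei, although set 2 alone was at 3488 CPM and the other sets at 1373 to 1527. Their survival to death ratio was 15.1 (10.9 to 21.4) and 9.77 without set 2, and that of 30 mast cell and basophil-like nuclei was 15.2 (6.71 to 42.4) on only 6 death UMIs. Late erythroid-like nuclei (120 nuclei) had a ratio of 2.24 (1.51 to 3.40), early B-like nuclei 2.99 (2.34 to 3.85), dendritic cell-like 3.53, neutrophil-like 3.67 and plasma cell-like 5.52 (4.41 to 6.97). The plasma cell-like sets ranged from 1.43 to 18.0, and without set 3 the ratio was 3.46. Bcl2l11 was at 98.7 CPM (66.1 to 142) in late erythroid-like nuclei, 2.62-fold the HSC-like level (1.70 to 3.90), against 30.5 CPM in erythroid progenitor-like nuclei. The late erythroid-like value rests on 29 UMIs, 18 in set 1 and 11 in set 3, from nuclei with a median of 1688.5 UMIs. In these sets it was at 107 and 87.3 CPM, against 16.7 and 47.4 CPM in HSC-like nuclei. Dendritic cell-like and plasma cell-like nuclei had Mcl1 levels (186 and 177 CPM) whose intervals overlapped that of HSC-like nuclei (175 CPM).

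Ordered over the gated classes, Bcl2 ran from T and NK cell-like through monocyte, lymphoid, megakaryocyte and granulocyte to mast cell and basophil-like, plasma cell-like and HSC-like nuclei, and on to endothelial and stromal-like (302 CPM, from 14 nuclei), neutrophil-like (254 CPM), dendritic cell-like (215), late erythroid-like (191), early B-like (159.6) and erythroid progenitor-like nuclei. Counting intervals separated each neighbour from T and NK cell-like down to granulocyte, and early B-like from erythroid progenitor-like nuclei. From granulocyte to early B-like they overlapped between neighbours. By barcode set, lymphoid (536 to 693 CPM) and megakaryocyte values (424 to 714 CPM) overlapped. For Mcl1 the top 3 classes were dendritic cell-like, plasma cell-like and HSC-like nuclei, which did not separate, and the bottom 2 were late erythroid-like (57.9 CPM, 33.7 to 92.7) and erythroid progenitor-like nuclei (51.0 CPM), which did not separate either.

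Over the 11 classes with at least 100 nuclei, the profile of Bcl2 was most like those of Sntb1 (Pearson r of 0.95 across class levels), Abcb1b (0.93) and Slc16a7 (0.85), among 8189 genes with at least 500 UMIs. For Mcl1 the closest were Klf6 (0.95), Parp4 (0.94) and Tmtc2 (0.94), and for Bcl2l11 Map1lc3b (0.81), Glipr2 (0.79) and Cmah (0.79), of which Cmah is a lymphoid gate marker. For Bcl2l1 they were Bcor (0.88), H2-Q4 (0.81) and Arl2bp (0.81), and for Bid Glg1, Rybp and Colgalt1 (0.88, 0.88 and 0.87). Among the members themselves, Bcl2 and Mcl1 had r of 0.46, Bcl2 and Bcl2l11 0.09, and Bcl2l1 and Bid -0.72. The classes come from the same libraries and differ in depth and mitochondrial share, so these values describe 11 points and no more.

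The gate mattered in the HSC-like and monocyte classes. Clusters of nuclei found without the BCL2 family genes divided the HSC-like gate into 443 nuclei inside the cluster named HSC-like and 388 outside it. Bcl2 was at 225 CPM inside and 400.2 CPM outside, Mcl1 at 201 and 151 CPM, Bcl2l11 at 27.0 and 47.7 CPM, and the survival to death ratio was 6.91 and 6.31. The monocyte gate held 35 nuclei inside the cluster named monocyte progenitor-like, with Bcl2 at 138 CPM (78.9 to 224) and a ratio of 1.82 (0.98 to 3.51), and 355 outside it, with Bcl2 at 1045 CPM and a ratio of 10.1 (8.97 to 11.4). Of these 355, 199 lay in a cluster that met the granulocyte and monocyte lists equally, with Bcl2 at 1056 CPM. The high Bcl2 level of the monocyte class is therefore that of the 355 nuclei.

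Nuclei differ in cell cycle as well as lineage. Of 20 G2/M genes, 15 were called higher in lymphoid, 15 in granulocyte, 20 in monocyte, 17 in megakaryocyte and 17 in erythroid nuclei, each against HSC-like nuclei, and none was lower. Of all measured genes, 4.35, 5.48, 5.94, 3.23 and 8.47% were called higher in the same order. At 2000 UMIs, 65.6% of lymphoid, 82.8% of granulocyte, 85.1% of monocyte, 72.6% of megakaryocyte and 95.2% of erythroid nuclei had UMIs of at least 2 of the 20 genes, against 48.8% of HSC-like nuclei. Members were therefore compared within classes, between nuclei with at least 2 G2/M genes and nuclei with none. Of the nuclei that passed no gate, 2217 had G2/M genes and 500 had none. Bcl2 was at 430.3 CPM with G2/M genes and 276 CPM without, a ratio of 1.56 (1.43 to 1.71), higher in 4 of 4 sets. Mcl1 was at 129.7 CPM with and 163 CPM without, a ratio of 0.80 (0.70 to 0.90), and Bax at 7.0 and 13.3 CPM, 0.53 (0.34 to 0.85), both lower in 4 of 4 sets.

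HSC-like nuclei had Bcl2 at 359 CPM with G2/M genes and 273 CPM without (1.31, interval 1.14 to 1.53, higher in 3 of 4 sets) and Mcl1 at 161 and 200.1 CPM (0.81, 0.67 to 0.97, lower in 3 of 4 sets). In lymphoid nuclei Bcl2 was at 655 and 536 CPM (higher in 4 of 4 sets), whereas Bcl2l11 was at 107 and 173 CPM, a ratio of 0.62 (0.49 to 0.79) that was lower in 3 of 4 sets. The survival to death ratio of lymphoid nuclei was 5.02 with G2/M genes and 3.09 without, and that of nuclei with no gate 6.93 and 4.61. Other classes did not all share this pattern. Bcl2 was at 424 CPM with G2/M genes and 478 CPM without in granulocyte nuclei (0.89, 0.71 to 1.12, lower in 3 of 4 sets). Mcl1 had ratios of 1.08 (0.67 to 1.89) in monocyte and 1.04 (0.67 to 1.69) in megakaryocyte nuclei, and the megakaryocyte survival to death ratio was 12.2 with G2/M genes and 19.1 in the 39 nuclei without. With nuclei without G2/M genes on both sides, Bcl2l11 (1.93), Bcl2 (0.95) and Mcl1 (-0.63) kept their calls in lymphoid nuclei against HSC-like nuclei. With G2/M genes on both sides, the survival to death ratio was 1.33 in erythroid nuclei against 6.73 in HSC-like nuclei. Only 4 erythroid nuclei had no G2/M gene.

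**Figure D5:**
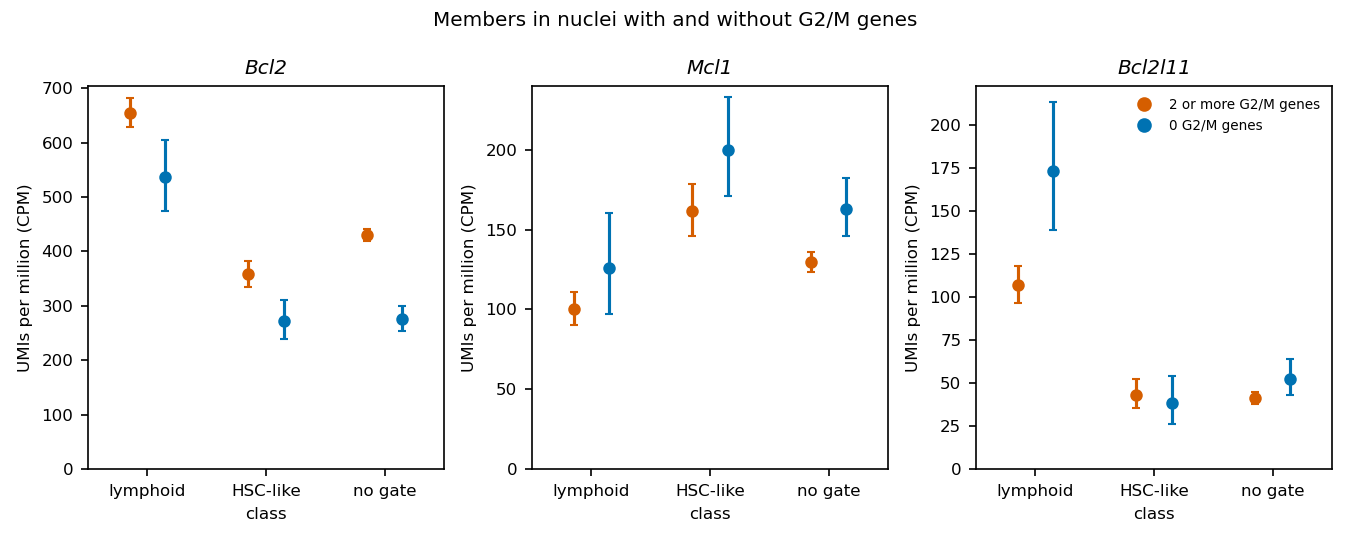
CPM of Bcl2, Mcl1 and Bcl2l11 in nuclei with at least 2 G2/M genes (orange, left of each pair) and with 0 (blue, right), at 2000 UMIs for the split, with 95% counting intervals. In nuclei with no gate Bcl2 is at 430.3 CPM with G2/M genes and 276 without, and in lymphoid nuclei Bcl2l11 is at 107 with and 173 without.

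Other apoptosis genes were taken from lists chosen by function. Of 16 other BCL2 family genes, 4 or 5 were measured per class, and the only call was Bcl2l13, which encodes a mitochondrial outer membrane protein, at 104 CPM in erythroid against 43.9 CPM in HSC-like nuclei. Apoptosome and caspase genes gave 0 calls outside the erythroid class, where Htra2, which encodes a mitochondrial protease, was higher, at 61.9 against 22.2 CPM in HSC-like nuclei. Of the inhibitor of apoptosis genes, Birc5 was higher in all 5 classes (30.7 to 37.9 against 14.4 CPM in HSC-like nuclei), and it encodes survivin, which also acts in mitosis. Naip5 was lower in lymphoid (23.0 CPM), granulocyte (28.0 CPM) and erythroid nuclei (10.2 CPM), against 49.1 CPM in HSC-like nuclei.

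Death receptors and their adaptors were lower in erythroid nuclei for 6 of 8 measured genes (list median -1.03, beside -0.17 for all genes and 25.6% of them lower). Casp8, which cleaves Bid, was at 46.8 CPM there against 112 CPM in HSC-like nuclei, and its inhibitor Cflar at 44.8 against 111 CPM. The same list gave 0 calls in lymphoid, granulocyte and monocyte nuclei and 1 in megakaryocyte nuclei, Tnfrsf1a, at 11.1 against 23.3 CPM. Genes for turnover and phosphorylation of the members, among them the MCL1 ligase gene Huwe1, gave 1 call over the 5 classes, Mapk8 in erythroid nuclei (71.5 against 121.5 CPM). Of factors known to act on member genes, Egr1 was lower in lymphoid (182 CPM), granulocyte (107 CPM), monocyte (83.0 CPM) and erythroid nuclei (82.8 CPM), against 429.9 CPM in HSC-like nuclei. Erythroid nuclei were lower for 5 of the 14 factors measured, beside 25.6% of all measured genes lower there. The 5 were Rel (18.9 against 129 CPM), Egr1, Stat3 (50.2 against 248 CPM), Nfkb1 (110.1 against 308 CPM) and Runx1 (794 against 2013 CPM). Foxo1 was lower in granulocyte nuclei (17.5 against 42.5 CPM), and Myc was not called in any class.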

How the data were processed

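The authors deposited UMI counts per gene and nucleus, with no normalization per the file's values (whole numbers). Cell Ranger ARC, Seurat, Signac and the build mm10 are listed in the submitters' processing notes. Tool versions, gene annotation, strand use and any filter on nuclei are not given in the sources used here. All 8708 nuclei were kept. Depth ran from 1001 to 24786 UMIs per nucleus. There were 0 further columns of per-sample values.

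The members, marker lists and gene lists were chosen with earlier results of these data known. Counts were scaled to 10000 per nucleus, logged and z-scored (limit 10). A nucleus took the class with the highest mean marker score when that score was at least 0.5 and at least 3 of its markers were detected, and 3 to 174 nuclei of the 6 main classes lay within 0.1 of that score. Counts were then summed per class as CPM, with exact Poisson intervals for levels and exact binomial intervals for ratios. The exception was the log2 survival to death ratio of a class to HSC-like nuclei, whose interval was a normal approximation. No p-value was made, since nuclei are not replicates. RefSeq gave gene positions and promoters (GRCm38.p6).

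Named genes were the 9 members, the 2 genes with the largest absolute log2 ratio per list and class (lymphoid, granulocyte, megakaryocyte, erythroid), and the 3 closest profiles per member. Further list genes were named after their values were seen. Alternatives were other gates (0.8 and 0.3), Leiden clusters (15 neighbours, 30 components, 2000 genes, resolution 0.8) without BCL2 family genes, removal of the highest 5% of doublet scores per set (doublets were otherwise kept), each barcode set left out, other scalings, count minimums and folds. Only the 1.5-fold rule was run on simulated counts, with an assumed spread between sets, and its outcome is not given here. Tools were Python 3.11.15, numpy 2.4.6, scipy 1.17.1, pandas 2.3.3, scikit-learn 1.9.0 and leidenalg 0.10.2. Some results of the apoptosis gene lists are not reported here.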

Additional observations from a re-analysis of the deposited data

How the results depend on the processing

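The survival to death ratio of erythroid progenitor-like over HSC-like nuclei (log2 -2.26) stayed below 0 in every alternative run. It was -2.65 with the stricter gate, -2.60 without the highest doublet scores, -2.52 as a mean of barcode sets, -1.90 without Bcl2, -2.59 without Bcl2l11, -1.23 with geometric means and -0.21 with only nuclei without G2/M genes, which left 4 erythroid nuclei. Leaving out each barcode set gave -2.55 to -2.11. The lymphoid ratio (-0.56) was -0.98 with the stricter gate, -0.13 with Leiden clusters, -0.91 without G2/M genes, -1.76 without Bcl2, -0.32 with geometric means and -1.27 per kb of gene (an alternative chosen after seeing the data), and it reversed to 0.24 without Bcl2l11. The granulocyte ratio (-0.14) was -0.55 with the stricter gate, -1.17 without Bcl2, -0.46 without Bcl2l11 and -1.19 per kb. The monocyte ratio (0.56) was 0.24 with the stricter gate and reversed to -2.01 with Leiden clusters, -1.20 without Bcl2, -0.18 with geometric means and -1.01 per kb. The megakaryocyte ratio (0.87) was 0.56 with the stricter gate, 1.73 without G2/M genes, 0.055 without Bcl2, 0.42 with geometric means and -0.21, reversed, per kb. Apart from changes made by removing a gene or weighting by length, the cause was not tested. Without each barcode set in turn the ratios ran from -0.67 to -0.43 (lymphoid), -0.30 to -0.10 (granulocyte), 0.34 to 0.69 (monocyte) and 0.72 to 1.02 (megakaryocyte).

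Counts of members called also moved. A 2-fold limit left 1 higher and 0 lower in lymphoid, 0 lower in granulocyte, 1 higher in monocyte, and 0 higher and 0 lower in megakaryocyte nuclei. Of all measured genes, that limit left 1.69% higher and 3.0% lower in lymphoid nuclei and 6.28% lower in granulocyte nuclei. It left 2.14% higher in monocyte nuclei, and 1.01% higher and 2.56% lower in megakaryocyte nuclei. In granulocyte nuclei 1 member was higher with the stricter gate, the looser gate or CPM plus 1 (Bid, Bcl2 and Bid), and 0 to 1 without each set. In monocyte nuclei 0 were higher with Leiden clusters or without G2/M genes, where 2 had been, and 1 was lower with the stricter gate (Mcl1), the looser gate (Bcl2l1) and without the highest doublet scores (Mcl1), and 0 to 1 without each set. There Bcl2 reversed to -0.78 and Bid to -0.19 with Leiden clusters, whose monocyte-named cluster holds 66 nuclei, 35 of them from the gate's 390. In megakaryocyte nuclei 1 was higher with Leiden clusters and 0 without G2/M genes, and 0 were lower over non-mitochondrial UMIs or at 2000 UMIs, with 0 to 1 without each set. In erythroid nuclei 1 was higher with the stricter gate, Leiden clusters, the mean of sets, non-mitochondrial UMIs or 2000 UMIs (Bid in each) and 2 with CPM plus 1 (Bid and Bax), and Bcl2l1 lost its lower call in 6 of 16 alternatives. Over all classes and alternatives 1.01 to 14.9% of all measured genes were called higher and 2.56 to 29.8% lower. In granulocyte nuclei 8.09, 4.09 and 8.03% were higher with the stricter gate, the looser gate and CPM plus 1. In monocyte nuclei 15.1, 12.5 and 15.4% were lower with the stricter gate, the looser gate and without the highest doublet scores. With Leiden clusters and without G2/M genes, 1.85 and 3.98% were higher in monocyte nuclei, and 6.26 and 3.03% in megakaryocyte nuclei. Over non-mitochondrial UMIs and at 2000 UMIs, 8.47 and 10.3% were lower in megakaryocyte nuclei. Without each set, 4.86 to 7.03% were higher in granulocyte, 13.3 to 15.4% lower in monocyte and 9.27 to 10.2% lower in megakaryocyte nuclei. In erythroid nuclei 10.5, 11.3, 11.9, 14.9, 9.84 and 11.8% were higher in the settings named for that class, in that order. Leiden clustering gave no granulocyte-named cluster, so that alternative has no value there. The other 176 values of the ratios and counts stayed within their spread or 1.5 times the count. No paired analysis was possible because the table's columns carry no genotype or replicate number, although each class was set against HSC-like nuclei within each barcode set.

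Counts limit what can be read of Bax and Bak1 (14 to 60 UMIs per progenitor class) and of Bmf and Bcl2a1b, which were never measured in a comparison. Intervals cover counting error only, and differences between mice cannot be seen in 1 table without replicates.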

Other observations

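Nuclei that passed no gate were the largest group (4107 nuclei) and belong in no comparison above beyond the split by G2/M genes. They had Bcl2 at 387 CPM (377 to 396), Mcl1 at 134 CPM (129 to 140), Bcl2l11 at 44.3 CPM, Bid at 23.4 CPM, Bcl2l1 at 18.4 CPM, Bak1 at 10.7 CPM and Bax at 7.62 CPM. Their survival to death ratio was 6.22 (5.90 to 6.57), and in barcode sets 1 to 4 it was 7.19, 6.20, 5.33 and 6.34. The endothelial and stromal-like gate took 14 nuclei with 24 Bcl2 UMIs and 10 death UMIs, and its ratio was 3.50 (1.70 to 7.92), or 6.0 without set 4, from 6 survival and 1 death UMIs.

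Barcode set 3 had the lowest Bcl2 level over all nuclei, 324 CPM, where sets 1, 2 and 4 had 382, 603 and 457 CPM. For Bcl2l11 set 1 was lowest, at 35.2 CPM, where sets 2, 3 and 4 had 47.4, 54.9 and 57.5 CPM. These sets carry no genotype here, so the values are given without grouping.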
